A study of Mus musculus with 18 samples.

Results

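The left atria of Zfhx3 Het mice were compared with those of WT mice, as 6 of the 18 libraries in the series: the 3 deposited count columns whose names end in het_LA against the 3 that end in wt_LA. Each of these 6 libraries comes from a separate animal by the identifiers in the sample titles. WT stands for wild type and Het for heterozygous, and the labels give the treatment as not applicable for both groups. They do not name the strain, age or sex of the animals, the kind of Zfhx3 allele, the part of the gene that it alters, or any driver line that made it, so nothing more can be said of Het as a model. The 3 KO left atrial libraries entered the fit to help estimate the spread between animals, and no KO level is compared here. Messenger RNA was enriched from total RNA of whole atria and sequenced, and the value measured is the number of reads per gene.

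Zfhx3 encodes a large transcription factor with zinc fingers and homeodomains, and its human counterpart lies at a locus associated with atrial fibrillation. The left atrium is a thin-walled, constantly working muscle. Its myocytes draw most of their ATP from oxidation of fatty acids and pyruvate in mitochondria, through the TCA cycle and the respiratory complexes I to V, and a few subunits of these complexes are encoded by the mitochondrial genome itself. The same myocytes carry the sodium, calcium, potassium and pacemaker (HCN) channels that shape the atrial action potential. Fibroblasts, endothelial cells, macrophages, smooth muscle and nerve fibres make up the rest of the tissue.

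The Het left atria differed from the WT left atria in 1596 of 16974 genes tested, which is 9.4%. Of these, 682 were higher in Het (4.02% of genes tested) and the others lower (5.38%). These shares over all genes are the background for the counts of called list members given below. A gene is called here when edgeR's quasi-likelihood test gave it a Benjamini-Hochberg adjusted p under 0.05, and "adjusted p" below means this value. Many of the calls that were lower belong to energy metabolism: genes of the respiratory chain, the TCA cycle, fatty acid oxidation and glycogen and glucose use fell together by modest amounts, and the sodium channel subunit gene Scn4b fell by more. The calls that were higher included smaller groups of TGF-beta and BMP, Notch, nitric oxide and splicing factor genes. Most differences were small: 543 of the 1596 called genes changed by more than 1.5-fold and 194 by more than 2-fold, of which 117 were higher and 77 lower. For 1594 of the called genes the 3 Het libraries and the 3 WT libraries did not overlap, a state that 32.3% of all genes tested share.

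**Figure D1:**
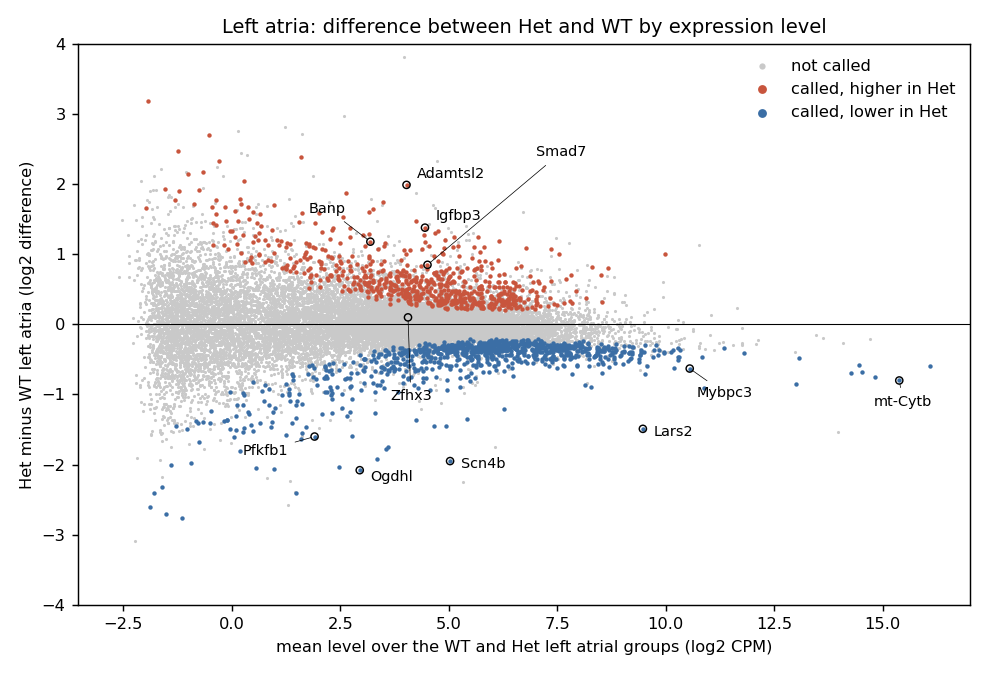
Each point is 1 gene tested; the horizontal axis is the mean of the WT and Het group levels in log2 CPM (counts scaled to library size) and the vertical axis is the log2 difference of Het minus WT left atria, with red and blue points for the 682 genes called higher and for those called lower. Falls are seen among the most abundant genes, such as mt-Cytb (log2 -0.80), while Zfhx3 itself lies near 0 (log2 0.10); the sex-linked genes Xist and those of the Y chromosome, and any other gene with a difference of over 4, lie outside the axes.

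Several properties of whole libraries moved with the genotype, and they bear on every result below. Total counts were 23556281, 30329736 and 18000583 in WT replicates 1, 2 and 3, and 28709004, 26350311 and 19067999 in Het replicates 1, 2 and 3. Mitochondrial genes took 24.1, 25.1 and 26.7% of the counts in the WT libraries, against 19.7, 18.6 and 19.4% in the Het libraries. The factors of composition scaling (TMM) were 0.874 to 0.931 in WT and 1.055 to 1.093 in Het. Scaling by library totals alone instead raises the median log2 difference of all genes from -0.003 to 0.24, so that differences given below are relative to the bulk of genes. Under library totals the count of calls was 4528, of which 94.8% were higher in Het, against 42.7% under TMM. With library totals 20 of the 1596 calls change sign, and many more are no longer called. Only 235 genes were called lower in Het on that scale. Most genes called lower under TMM, the energy metabolism calls among them, were thus tested against a baseline that depends on the scaling. Within the WT group, replicate 3 stood apart with the lowest depth and the lowest levels of fibroblast and macrophage genes, and within the Het group, replicate 2 stood apart with the highest levels of immediate early and interferon genes. Without Het replicate 2, 307 genes were called, and without WT replicate 3, 672.

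Genotype and sex cannot be told apart in these 6 animals. Xist, the RNA that silences an X chromosome in female cells, was at 0.913, 0.792 and 0.827 CPM in WT and at 584, 557 and 675 CPM in Het. The Y-linked RNA helicase gene Ddx3y was at 144, 154 and 173 CPM in WT and had no count in any Het library, where a count of 0 allows up to 3 counts, or 0.0982, 0.104 and 0.149 CPM. The WT animals thus all carried a male pattern and the Het animals a female pattern. Eif2s3y, Kdm5d and Uty also had no count in the Het left atria, against 83.5 ± 6.87, 33.2 ± 3.97 and 45.7 ± 3.30 CPM in WT (SD, n = 3). The KO libraries that share in the estimate of the spread hold both patterns, with Xist above 100 CPM in 1 of 3 and Ddx3y above 100 CPM in 2 of 3. In that fit Xist had an adjusted p of 0.126 and Ddx3y 0.126, while the fit to the 6 WT and Het libraries alone gave 2.47e-09 for Xist and 4.24e-07 for Ddx3y. The fit to the 6 libraries called 5 of 6 Y chromosome genes lower, against 0 of 6 in the fit with KO. It also called every X-linked gene listed as escaping inactivation higher, except Utp14a (adjusted p = 0.0992). In the fit with KO, 6 of these 10 X-linked genes were called higher, and all 10 lay above 0. Kdm5c, a histone demethylase, was at 43.9 ± 2.91 CPM in WT and 80.9 ± 2.49 in Het (log2 0.88 ± 0.19 SE, adjusted p = 0.0272). On the X chromosome 63 of 538 genes were called (11.7%), 45 of them higher. Leaving out all X and Y genes left 1539 calls.

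Zfhx3 (chr8:107942644-108961630, GRCm38) was not lower in Het. Its counts were 383, 473 and 215 in the WT libraries and 577, 455 and 346 in the Het libraries, which is 17.5, 17.0 and 13.7 CPM against 18.9, 15.8 and 17.2 CPM. The groups overlapped, and the log2 difference was 0.10 ± 0.11 (SE, adjusted p = 0.599). Since the altered stretch of the gene is unknown here, this count over the whole gene does not check the Het label. Genes around Zfhx3 were called at a share near that of all genes: 14 of 136 within 5 Mb (10.3%), 16 of 155 within 10 Mb (10.3%) and 36 of 358 within 20 Mb (10.1%), beside 9.4% overall. Outside the mitochondrial genome and the X and Y chromosomes, the share called by chromosome ran from 7.62% on chromosome 17 to 13.3% on chromosome 16.

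The tissue markers fitted left atrial muscle in both groups. The atrial myosin light chain gene Myl7 was at 3319, 3079 and 4148 CPM in WT and 3069, 3609 and 3500 CPM in Het, and the atrial natriuretic peptide gene Nppa was at 3557, 4138 and 3663 against 3335, 2754 and 3380 CPM. Bmp10, a gene of right atrial myocytes, was at 0.954 to 3.78 CPM in the WT left atria and 1.15 to 4.71 in the Het left atria, against 7223 to 8827 CPM in the right atria. Of these 3 genes none was called in left atria.

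Transcripts of the mitochondrial genome showed the largest median fall of the gene lists with 10 or more members tested. All 13 protein-coding genes lay below 0, 9 of 13 were called lower, and the median log2 difference was -0.80, beside -0.003 for all genes tested. mt-Cytb, the cytochrome b subunit of complex III, was at 49381, 55003 and 58298 CPM in WT and at 33017, 28457 and 31969 CPM in Het. Every Het library lay below every WT library (log2 -0.80 ± 0.12 SE, adjusted p = 0.00624). mt-Nd6, a complex I subunit and the only protein gene on the light strand, was at 10944, 9845 and 10895 CPM in WT and 5985, 5563 and 5985 in Het (log2 -0.85 ± 0.12 SE, adjusted p = 0.00558). mt-Nd1, mt-Nd2, mt-Nd4 and mt-Nd5, the other abundant complex I members, fell by 0.68, 0.58, 0.70 and 0.75 on the log2 scale, and the cytochrome oxidase gene mt-Co1 by 0.59. The 5 genes mt-Atp6, mt-Co2, mt-Co3, mt-Nd3 and mt-Nd4l have near-identical nuclear copies (at least 99% identity over 90% of the gene) and are listed at only 0.452 to 12.4 CPM, so their differences are uncertain; mt-Atp6 and mt-Co2 are among the 9 called. mt-Nd4 has a copy of 100% identity over 63.6% of its length, and mt-Atp8, at 1.15 to 4.07 CPM, is as weakly counted as the copied genes. The 2 ribosomal RNAs of the mitochondrion were not called, with log2 differences of 0.23 for mt-Rnr1 and -0.15 for mt-Rnr2, in libraries enriched for polyadenylated RNA. Cell type markers moved in the same libraries as this and the following metabolic lists: the summed cardiomyocyte markers were 91875 to 107565 CPM in WT and 78900 to 84943 in Het, with all 16 below 0, and the summed fibroblast markers were 1644 to 4115 CPM in WT and 4953 to 6114 in Het, with 15 of 16 above 0. Their part in the metabolic falls was not tested. In whole atria, fewer cells of a type and less RNA per cell cannot be told apart. The fall is the same measurement as the lower share of mitochondrial counts given above. It remained below 0 with library totals, at a list median of -0.56. Between 6 and 10 members were called when any 1 WT or Het library was left out.

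Many nuclear subunit genes of the respiratory complexes were also called lower. In complex I, which takes electrons from NADH, 19 of 36 subunit genes were called lower and 0 higher, all 36 lay below 0, and the median log2 difference was -0.32. In complexes II to V, 28 of 44 were called lower and 0 higher, with a median of -0.35. Ndufb8, a complex I subunit, was at 136, 158 and 143 CPM in WT and at 106, 99 and 94.3 CPM in Het. The groups did not overlap (log2 -0.55 ± 0.08 SE, adjusted p = 0.00558). Cox7a1, the heart and muscle form of a cytochrome oxidase subunit, was at 214, 250 and 246 CPM in WT and at 164, 155 and 157 CPM in Het (log2 -0.58 ± 0.08 SE, adjusted p = 0.00556). Complex by complex, the succinate dehydrogenase genes Sdha, Sdhb and Sdhd, the cytochrome bc1 genes Uqcrc1, Uqcrc2 and Uqcrfs1, and the ATP synthase genes Atp5a1 and Atp5b were among those called, with log2 differences between -0.46 and -0.32. These were small differences, and the gap between the groups could be smaller than the range within WT: for Atp5b, the catalytic subunit, 3735, 4088 and 4449 CPM in WT stood against 3111, 3104 and 2995 CPM in Het (log2 -0.41 ± 0.08 SE, adjusted p = 0.0162). The counts rest on single libraries. In complex I, 10, 5 and 7 genes were called without Het replicates 1, 2 and 3, and 31, 6 and 7 without WT replicates 1, 2 and 3. In complexes II to V the same counts were 13, 2 and 3, and 34, 6 and 9. The medians stayed below 0 with library totals, at -0.08 and -0.11.

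Genes for every step of the beta-oxidation spiral were among those called lower. In the list of uptake and oxidation genes 17 of 33 were called lower and 0 higher, and the median log2 difference was -0.49. With library totals the median was -0.25. The list's mean log2 CPM was 6.85, 7.26 and 6.95 in WT and 6.65, 6.19 and 6.87 in Het, so the groups overlapped. Its summed level did not overlap, at 10894 to 13331 CPM in WT and 7318 to 10638 in Het. The acyl-CoA dehydrogenases, which take the first step for chains of falling length, were called in all 4 cases listed: Acadvl at log2 -0.54, Acadl at -0.43, Acadm at -0.56 and Acads at -0.74. Acads, the short-chain form, was at 46.9, 60.7 and 56.8 CPM in WT and at 35.0, 29.3 and 34.1 CPM in Het (adjusted p = 0.00556). The trifunctional protein genes Hadha and Hadhb, at -0.54 and -0.60, and Hadh, at -0.59, carry out the later steps. Hadh was at 266, 299 and 321 CPM in WT and at 200, 191 and 200 CPM in Het (adjusted p = 0.00556). Etfa, Etfb and Etfdh, which pass the electrons on to the respiratory chain, were called as well, at log2 -0.45, -0.57 and -0.56. The fatty acid transporter gene Cd36 was not called, with 1121, 1287 and 1203 CPM in WT and 888, 753 and 1107 in Het (log2 -0.39, adjusted p = 0.0695). Regulators known to act on this programme were mostly not called: Ppara had a log2 difference of 0.09 (adjusted p = 0.754), the coactivator gene Ppargc1a -0.11 (adjusted p = 0.606) and the estrogen-related receptor gene Esrra -0.13 (adjusted p = 0.398), while its relative Esrrg was called lower (log2 -0.40, adjusted p = 0.0253). With Het replicates 1, 2 and 3 left out in turn, 9, 4 and 16 of the 33 were called, and with WT replicates 1, 2 and 3 left out, 18, 6 and 8.

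The TCA cycle and its pyruvate entry had the highest share of called members among the metabolic lists, with 20 of 27 lower, 0 higher and a median log2 difference of -0.39. All 27 lay below 0 and 26 did not overlap between the groups. Of all genes tested, 16.7% had every Het library below every WT library, and 5.38% were called lower. Ogdhl, a tissue-restricted relative of the 2-oxoglutarate dehydrogenase subunit (chr14:32322019-32348151), had the largest fall of the named autosomal genes: 12.9, 15.1 and 9.54 CPM in WT against 4.32, 2.09 and 2.44 CPM in Het (log2 -2.08 ± 0.26 SE, adjusted p = 0.00556). The main enzyme gene Ogdh, far more abundant, was at 1354, 1456 and 1567 CPM in WT and at 1075, 967 and 1125 CPM in Het (log2 -0.47, adjusted p = 0.0158). Citrate synthase (Cs), malate dehydrogenase (Mdh2), the succinyl-CoA ligase subunit Sucla2 and the pyruvate dehydrogenase genes Pdha1, Pdhb and Dlat were called at log2 -0.43, -0.44, -0.49, -0.39, -0.38 and -0.43. So were Pdk1 and Pdk2, kinases that switch pyruvate dehydrogenase off, both at -0.44. Near Zfhx3 on chromosome 8 lie 2 pyruvate dehydrogenase phosphatase genes that were also called, the catalytic subunit gene Pdp2 (log2 -0.79, adjusted p = 0.0150) and the regulatory subunit gene Pdpr (log2 -0.62, adjusted p = 0.00593). The list count was 18, 4 and 11 without Het replicates 1, 2 and 3, and 25, 12 and 13 without WT replicates 1, 2 and 3. With library totals the list median was -0.14. On that scale Cs, Mdh2, Pdhb and Dlat were not called (adjusted p of 0.0824, 0.0884, 0.205 and 0.085), while Sucla2 and Ogdhl were.

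Glycolysis and glycogen genes fell in 12 of 27 cases, with 1 higher and a median of -0.33. Pfkfb1, an enzyme that makes the activator of phosphofructokinase (chrX:150588229-150643878), fell most: 4.84, 6.37 and 5.72 CPM in WT against 1.70, 1.77 and 2.14 CPM in Het (log2 -1.6 ± 0.18 SE, adjusted p = 0.00228). Phosphofructokinase genes went both ways: the muscle form Pfkm and the liver form Pfkl were lower, at log2 -0.39 and -0.46, and the platelet form Pfkp was higher, at 0.37 (adjusted p = 0.0145). Ckmt2, the creatine kinase of muscle mitochondria that hands energy from ATP to creatine, was at 785, 1022 and 949 CPM in WT and at 551, 553 and 576 CPM in Het (log2 -0.71 ± 0.09 SE, adjusted p = 0.00556). Ogdhl, Pfkfb1, Acads, Hadh, Ckmt2, Ndufb8 and Cox7a1 were each called in all 14 other fits tried (other tools, scalings, filters, sample sets and each WT or Het library left out). The list count of lower genes was 4, 3 and 6 without Het replicates 1, 2 and 3, and 17, 6 and 4 without WT replicates 1, 2 and 3. With library totals the median of the glycolysis and glycogen list was -0.09, and Pfkl was not called (adjusted p = 0.201).

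Of 77 mitochondrial ribosomal protein genes 16 were called lower and 0 higher at a median log2 difference of -0.20, which turns to 0.04 with library totals. Of 31 proteasome subunit genes 5 were called lower at a median of -0.15, which turns to 0.09 with library totals. Both counts depend on single libraries. The first was 7, 0 and 1 without Het replicates 1, 2 and 3 and 22, 1 and 1 without WT replicates 1, 2 and 3, and the second was 1, 0 and 0, and 4, 1 and 0. Mrpl16, of the large subunit, was at 42.5, 47.4 and 51.4 CPM in WT and at 37.1, 33.8 and 34.3 CPM in Het (log2 -0.43, adjusted p = 0.0125). Among the 78 cytosolic ribosomal protein genes edgeR's quasi-likelihood test called 0, and their median was 0.06.

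**Figure D2:**
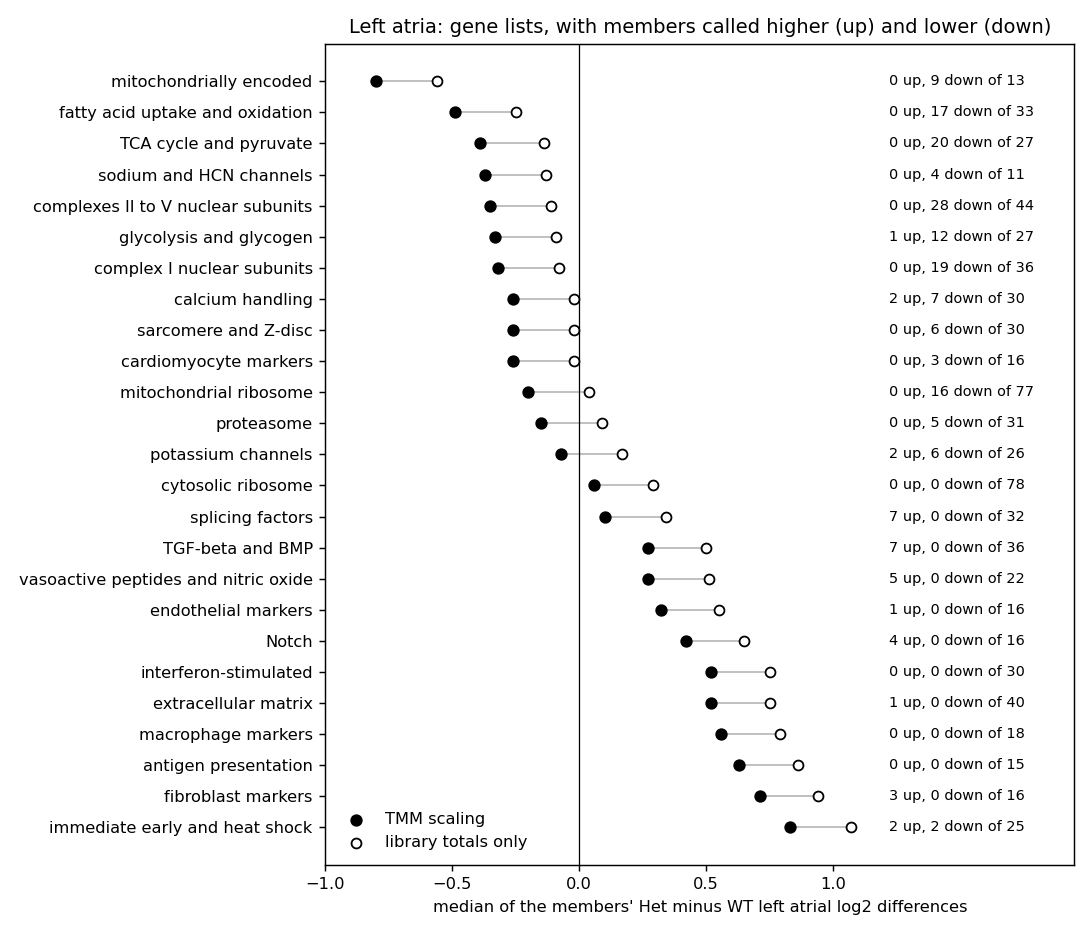
For a selection of the gene lists, the horizontal axis gives the median of its members' Het minus WT log2 differences in left atria, as filled points with TMM scaling and open points with library totals only, and the text at the right gives the members called higher and lower of those tested. The lowest medians shown run from -0.80 for mitochondrially encoded genes to -0.32 for complex I and include the sodium and HCN channels at -0.37; of the lists shown, the mitochondrial ribosome, the proteasome and the potassium channels change sign with library totals (0.04, 0.09 and 0.17).

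Short stretches of promoter that hold the site of a factor of mitochondrial gene control are printed for 4 of the called nuclear genes, to show the sequence in genes that fell together. Nuclear respiratory factor NRF1 binds a 10-base palindrome, and GABP, also named nuclear respiratory factor 2, binds CCGGAAGTG. Capitals mark the exact match, the sequences run 5′ to 3′ on the gene's strand within the 250 bases before the start, and they come from RefSeq promoters on GRCm38.p6.
Atp5k, NRF1, minus strand, chr5:108434414-108434475: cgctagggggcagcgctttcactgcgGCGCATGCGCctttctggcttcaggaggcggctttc
Etfdh, NRF1, minus strand, chr3:79628860-79628921: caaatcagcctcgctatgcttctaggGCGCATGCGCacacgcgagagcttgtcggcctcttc
Mrpl39, NRF1, minus strand, chr16:84735334-84735395: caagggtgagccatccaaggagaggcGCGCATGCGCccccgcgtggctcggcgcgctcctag
Cpt2, GABP, minus strand, chr4:107923590-107923628: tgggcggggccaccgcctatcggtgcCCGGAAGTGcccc
These genes encode an ATP synthase subunit, the dehydrogenase that takes electrons from beta-oxidation, a mitochondrial ribosomal protein and the inner carnitine palmitoyltransferase, and they had log2 differences of -0.45, -0.56, -0.29 and -0.51. The letters were similarly rare among genes called in either direction. The NRF1 letters stood in 2.17% of the 690 genes called lower with a promoter in the table, in 2.12% of the 520 called higher, in 1.70% of the 11622 tested and in 0.877% of all 27025 in the table. For GABP the shares were 2.32, 2.88, 3.14 and 1.6%, and for the estrogen-related receptor site TCAAGGTCA, on both strands as for the others, 0.58, 0.385, 0.318 and 0.422%. Genes with the NRF1 letters that were not called include Cox6a1 (log2 0.03) and Mrpl32 (log2 -0.08). A match is a description of letters, not a site shown to be bound.

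Ion channel genes of the atrial myocyte fell in a few cases by large amounts. Of 11 sodium and HCN channel genes tested, 4 were called lower and 0 higher, and the median log2 difference was -0.37. Scn4b, an auxiliary subunit that tunes sodium current (chr9:45138395-45154152), was at 41.7, 65.7 and 48.3 CPM in WT and at 15.6, 7.79 and 17.2 CPM in Het (log2 -1.95 ± 0.32 SE, adjusted p = 0.0157). Its highest Het library lay below the lowest WT library by more than the whole Het range. Scn4a, the sodium channel best known from skeletal muscle, was at 32.5, 46.6 and 42.5 CPM in WT and at 24.2, 17.6 and 21.9 CPM in Het (log2 -0.93 ± 0.17 SE, adjusted p = 0.0154). Hcn2, a pacemaker channel, was at 5.98, 8.10 and 7.06 CPM in WT and at 3.54, 2.33 and 2.98 CPM in Het (log2 -1.26 ± 0.18 SE, adjusted p = 0.00593). The sinus node channel gene Hcn4 was not called, at 1.48 to 2.93 CPM in WT and 1.04 to 1.37 in Het (adjusted p = 0.0702). Of the 11 genes 1 was called without WT replicate 3 and 2 without Het replicate 2. Without WT replicate 3 the adjusted p of Scn4b was 0.0507. With library totals the list median was -0.13.

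Calcium handling genes were called lower in 7 of 30 cases and higher in 2, with a median of -0.26. The L-type calcium channel supplied 4 of the falls: the pore genes Cacna1c (log2 -0.48) and Cacna1d (-0.64) and the accessory subunit genes Cacna2d1 (-0.29) and Cacna2d2 (-0.45). Cacna1c was at 231, 220 and 253 CPM in WT and at 184, 147 and 176 CPM in Het (adjusted p = 0.0162). Pln, phospholamban, the brake on the calcium pump of the sarcoplasmic reticulum, was at 930, 739 and 1059 CPM in WT and at 634, 526 and 644 CPM in Het (log2 -0.60 ± 0.13 SE, adjusted p = 0.0212). The pump gene itself, Atp2a2, was not called (log2 -0.26, adjusted p = 0.110), nor was the main release channel gene Ryr2 (log2 -0.30, adjusted p = 0.0661). Outside the list, the release channel gene Ryr3 was at 17.9, 17.7 and 12.9 CPM in WT and at 5.70, 2.19 and 5.02 CPM in Het (log2 -1.92 ± 0.44 SE, adjusted p = 0.0366), and the plasma membrane calcium pump gene Atp2b2 at 18.2, 18.1 and 20.3 against 4.75, 5.63 and 6.52 CPM (log2 -1.75 ± 0.24 SE, adjusted p = 0.00692). Another pump of that family, Atp2b4, was higher, at 100, 65.5 and 53.8 CPM in WT and 138, 131 and 124 CPM in Het (log2 0.84, adjusted p = 0.0349). The count of lower genes was 0 without Het replicate 2, 4 without Het replicate 3 and 3 without WT replicate 3, and Ryr3 had an adjusted p of 0.0919 without Het replicate 2. With library totals the list median was -0.02, and Cacna2d2 was not called (adjusted p = 0.108).

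Among potassium channel genes 6 of 26 were called lower and 2 higher, at a median of -0.07 that turns to 0.17 with library totals. Kcnj2, the inward rectifier that holds the resting potential, was called lower at -0.37, as was Kcnj11, a pore subunit of the ATP-sensitive channel, at -0.37. Kcnk6, a background potassium channel, was higher, at 6.07, 6.62 and 4.51 CPM in WT and 10.1, 9.87 and 10.4 CPM in Het (log2 0.81 ± 0.15 SE, adjusted p = 0.0116). The acetylcholine-gated channel genes Kcnj3 and Kcnj5, typical of the atrium, had log2 differences of -0.21 and -0.10 and were not called. Connexins were not called in the case of the 2 that couple atrial myocytes, Gja1 (log2 0.07) and Gja5 (log2 0.23), while the endothelial connexin gene Gja4 was higher (log2 0.85, adjusted p = 0.0297) and the desmosomal gene Dsp was lower, at 1491, 1270 and 1556 CPM in WT and 1021, 1029 and 1081 in Het (log2 -0.46 ± 0.09 SE, adjusted p = 0.0152). The count of lower potassium channel genes was 3, 1 and 3 without Het replicates 1, 2 and 3, and 2 without WT replicate 3.

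Other large falls were those of genes for a vesicle protein best known from neurons and a membrane protein. Syn2, a synapsin of synaptic vesicles, was at 27.7, 23.7 and 30.3 CPM in WT and at 8.45, 9.25 and 14.1 CPM in Het (log2 -1.37 ± 0.22 SE, adjusted p = 0.0116). Lrtm1, a membrane protein with leucine-rich repeats, was at 60.4, 55.3 and 68.7 CPM in WT and at 27.5, 25.8 and 18.9 CPM in Het (log2 -1.35 ± 0.13 SE, adjusted p = 0.00217). Both separated the groups in every library. The list of neuronal and Schwann cell markers went the other way, with 1 of 8 called higher (Cdh19, log2 0.97) and summed levels of 13.0 to 18.9 CPM in WT and 22 to 27.3 in Het. Lrtm1 was called in all 14 other fits, and Syn2 in 13, with an adjusted p of 0.0574 without Het replicate 2.

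**Figure D3:**
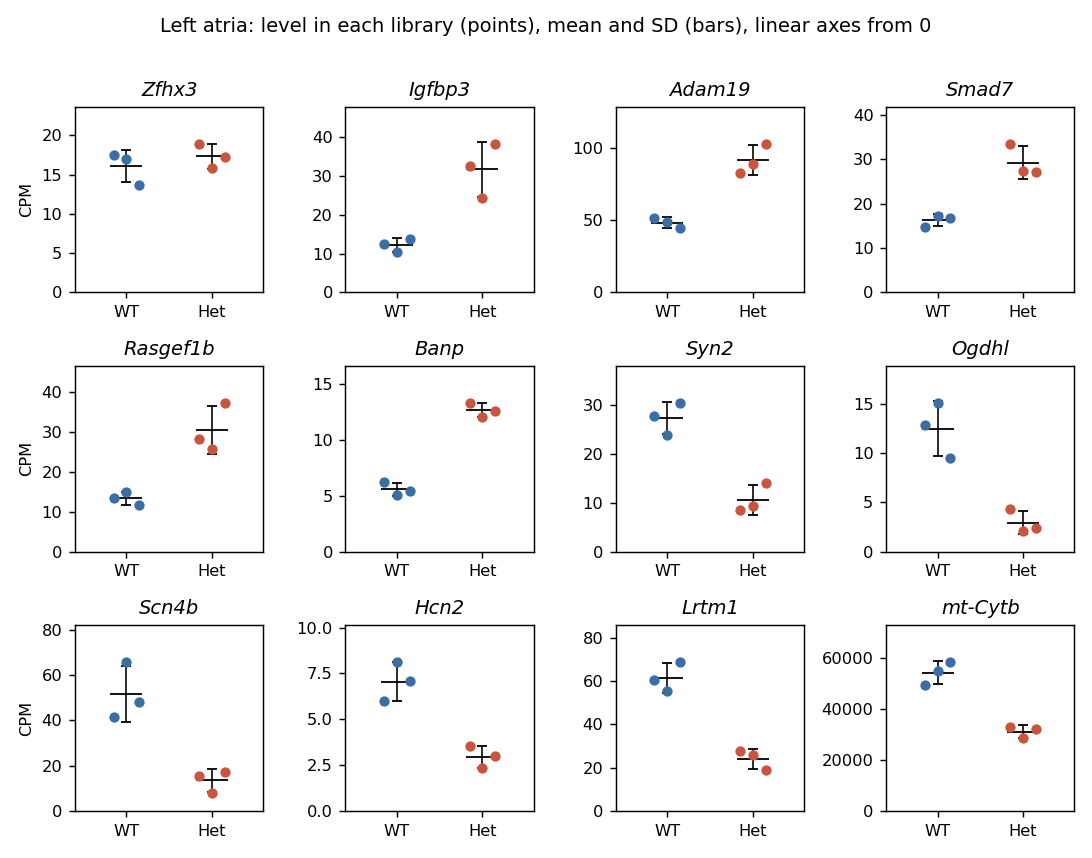
Each panel gives 1 gene's level in CPM on a linear axis from 0, with points for the 3 WT (blue) and 3 Het (red) left atrial libraries and bars for the mean and SD. The groups overlap for Zfhx3 (WT 13.7 to 17.5, Het 15.8 to 18.9 CPM) and do not overlap in the other 11 panels.

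Lars2, the mitochondrial leucyl-tRNA synthetase gene, was at 1211, 1092 and 845 CPM in WT and at 597, 232 and 290 CPM in Het (log2 -1.49 ± 0.36 SE, adjusted p = 0.0441). The 6 libraries rank by Lars2 exactly as they rank by the share of counts taken by 1 gene ID with no symbol, which was 2.52, 2.34 and 1.68% in WT and 1.49, 0.53 and 0.626% in Het. The ranks also matched in all 5 right atrial libraries. Whether reads of that ID enter the Lars2 count was not tested. Lars2 was called in 5 of 14 other fits, with an adjusted p of 0.121 without Het replicate 3.

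Genes of the contractile apparatus were lower in part. Of 30 sarcomere and Z-disc genes 6 were called lower and 0 higher, and the median log2 difference was -0.26. Mybpc3, cardiac myosin-binding protein C, was at 1709, 1720 and 2051 CPM in WT and at 1037, 1201 and 1296 CPM in Het (log2 -0.63 ± 0.11 SE, adjusted p = 0.0103). Ttn, titin, was at 10488, 9404 and 10074 CPM in WT and at 7055, 6487 and 7970 CPM in Het (log2 -0.48 ± 0.10 SE, adjusted p = 0.0182). Of the 16 cardiomyocyte markers, Ttn, Ckmt2 and Pln were called lower, and their summed level is given with the mitochondrial genes. The medians of both lists shrink to -0.02 with library totals. The count of called sarcomere genes was 1, 1 and 3 without Het replicates 1, 2 and 3, and 2 without WT replicate 3.

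Genes that rose included members of TGF-beta and BMP signalling, which acts from secreted ligands through paired receptors and SMAD proteins. Of 36 genes tested, 7 were called higher and 0 lower, beside 4.02% of all genes called higher, and the median log2 difference was 0.27. The ligand genes Tgfb1 and Inhbb rose by log2 0.50 and 1. The receptor genes Tgfbr1 and Acvr1 rose by 0.48 and 0.60: Acvr1, a type I receptor for BMPs and activin, was at 30.1, 27.9 and 22.2 CPM in WT and at 40.7, 40.2 and 41.3 CPM in Het (adjusted p = 0.00771). The transducer gene Smad5 rose by 0.23. Smad7, an inhibitor that these signals induce, was at 14.7, 17.3 and 16.9 CPM in WT and at 33.5, 27.3 and 27.1 CPM in Het (log2 0.85 ± 0.12 SE, adjusted p = 0.00556). Id3, a target of BMP signals, was at 17.2, 19.3 and 16.6 CPM in WT and at 30.5, 26.5 and 24.5 CPM in Het (log2 0.62 ± 0.16 SE, adjusted p = 0.0436). The related inhibitor Smad6 (8.22, 11.4 and 6.10 against 16.7, 14.6 and 10.2 CPM) and the target Id1 (7.12, 8.96 and 7.57 against 10.8, 13.7 and 15.5 CPM) were not called, with adjusted p of 0.153 and 0.0554. Outside the list, Skil, which restrains SMAD transcription, rose by 0.75 (adjusted p = 0.00556), the matrix latency protein gene Ltbp4 by 0.81 (adjusted p = 0.0189), and the metalloprotease gene Adam19 from 51.7, 49.0 and 44.5 CPM to 82.5, 89.4 and 103 CPM (log2 0.92 ± 0.09 SE, adjusted p = 0.00199). Skil and Adam19 were chosen by hand and not by the naming rule, so they add nothing to the list's count. The count of called genes was 4, 3 and 3 without Het replicates 1, 2 and 3, and 3 without WT replicate 3. Fibroblast and endothelial markers, given further on, were higher in the same libraries.

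Notch and vascular signalling genes also rose. Of 16 Notch pathway genes 4 were called higher and 0 lower, with a median of 0.42: the receptors Notch1 (log2 0.90) and Notch2 (0.41), the ligand Dll1 (0.76) and the target Heyl (1.31). Dll1 was at 4.70, 5.87 and 4.32 CPM in WT and at 8.68, 8.73 and 8.01 CPM in Het (adjusted p = 0.0108). Heyl was at 16.1, 18.5 and 8.90 CPM in WT and at 32.5, 39.8 and 37.1 CPM in Het (adjusted p = 0.0184). Of 22 vasoactive peptide and nitric oxide genes 5 were called higher and 0 lower: endothelial nitric oxide synthase (Nos3, log2 0.56), the soluble guanylate cyclase subunit gene Gucy1b1 (0.65) that nitric oxide activates, the phosphodiesterase gene Pde5a (0.59) that breaks down its product, the endothelin receptor gene Ednrb (0.72) and adrenomedullin (Adm, 0.91). Nos3 was at 15.3, 17.9 and 14.8 CPM in WT and at 26, 22 and 23.1 CPM in Het (adjusted p = 0.0191). Endothelial marker levels moved beside them, with 13 of 16 above 0, 1 called (Kdr, log2 0.49, adjusted p = 0.0108) and summed levels of 1682 to 2536 CPM in WT and 2575 to 3325 in Het. Their part in these rises was not tested. The Notch count was 2, 1 and 1 without Het replicates 1, 2 and 3 and 2 without WT replicate 2, and the nitric oxide count was 1, 1 and 2 without the Het replicates and 3 without WT replicate 2.

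The 10 largest rises of named genes were led by Adamtsl2, Scml4 and Fndc1. Thbs2, a thrombospondin of the matrix, was at 13.7, 8.78 and 7.63 CPM in WT and at 24.5, 31.2 and 28.2 CPM in Het (log2 1.47 ± 0.31 SE, adjusted p = 0.0287). Igfbp3, a binding protein for insulin-like growth factors (chr11:7206086-7213923), was at 12.5, 10.3 and 13.8 CPM in WT and at 32.4, 24.3 and 38.2 CPM in Het (log2 1.38 ± 0.24 SE, adjusted p = 0.0151), and it was called in all 14 other fits. Adamtsl2, which binds microfibrils and latent TGF-beta (chr2:27079379-27108981), had the largest fold of the named rises, from 8.17, 7.99 and 3.05 CPM to 28.9, 13.0 and 36.8 CPM (log2 1.99 ± 0.48 SE, adjusted p = 0.0471). Its Het libraries spread nearly 3-fold, and it was called in 6 of 14 other fits. Fndc1 and Pdgfrl rose by 1.75 and 1.53 on the log2 scale. The neuronal adhesion genes Lsamp and Negr1 rose by 1.64 and 1.38, and the guidance receptor gene Robo1 by 1.37. Lsamp was at 6.03, 4.64 and 2.99 CPM in WT and at 13.4, 16.6 and 13.2 CPM in Het (adjusted p = 0.0249). Scml4, a polycomb-related gene, rose by 1.88 and the macrophage lectin gene Mgl2 by 1.6. In 9 of these 10 genes, Igfbp3 excepted, WT replicate 3 was the lowest library. Without Het replicate 2 the adjusted p was 0.104 for Thbs2, 0.0913 for Lsamp, 0.116 for Scml4, 0.151 for Mgl2 and Pdgfrl, 0.155 for Fndc1 and 0.0769 for Robo1, and without WT replicate 3 it was 0.117 for Adamtsl2 and 0.0519 for Negr1.

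Cell type markers moved beside these genes. Of 16 fibroblast markers 15 lay above 0, at a median of 0.71, and 3 were called higher: Tcf21 (log2 1.07), Smoc2 (1.20) and Fap (0.81). Smoc2 was at 23.7, 19.5 and 11.6 CPM in WT and at 38.4, 48.7 and 40.0 CPM in Het (adjusted p = 0.0362). The main fibrillar collagens, though, overlapped between the groups and were not called: Col1a1 was at 73.0, 165 and 32.8 CPM in WT and at 112, 147 and 131 CPM in Het (adjusted p = 0.613), and Col3a1 at 343, 623 and 161 against 482, 599 and 464 CPM (adjusted p = 0.609). Of 40 matrix genes 1 was called, Ltbp4. In WT replicate 3, the mean log2 CPM of the fibroblast markers was 5.22, against 6.21 and 6.49 in the other WT libraries and 6.66 to 6.93 in Het. The count of called markers was 1, 0 and 0 without Het replicates 1, 2 and 3 and 1 without WT replicate 2. The part of fibroblast content in the rises of matrix and TGF-beta genes was not tested.

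Macrophage and interferon lists had 0 members called by edgeR and the immediate early and heat shock list 4. WT replicate 3 stood apart in the macrophage list, and Het replicate 2 in the interferon and immediate early lists. Of 18 macrophage markers 17 lay above 0, at a median of 0.56, and none was called; the mean log2 CPM was 1.85 in WT replicate 3 against 3.75 and 3.78 in the other WT libraries and 3.78 to 4.14 in Het. Of 30 interferon-stimulated genes 29 lay above 0, at a median of 0.52, and none was called; Het replicate 2 had a mean log2 CPM of 3.90 against 2.84 and 2.87 in the other Het libraries. Immediate early and heat shock genes had the highest list median, 0.83, with 2 of 25 called in each direction. In either direction, 18 of the 25 did not overlap between the groups, beside 32.3% of all genes tested. The list's mean log2 CPM was 3.51, 3.63 and 3.51 in WT and 3.87, 5.17 and 3.96 in Het. Every Het library thus lay above every WT library, with Het replicate 2 highest. Fos, the classic immediate early gene, was at 2.69, 6.08 and 3.56 CPM in WT and at 5.30, 32.8 and 5.07 CPM in Het (adjusted p = 0.336), so that 1 Het library was far above the other 5. Egr1 was at 20.8, 16.8 and 19.4 CPM in WT and at 36.8, 73.5 and 31.3 CPM in Het (log2 1.32, adjusted p = 0.113). The called members were Jund (log2 0.46) and Myc (0.94), both higher, and the chaperone genes Hspd1 (-0.28) and Hsph1 (-0.55), both lower. Hspd1, at 287 to 293 CPM in WT and 234 to 249 in Het, serves in the mitochondrial matrix.

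**Figure D4:**
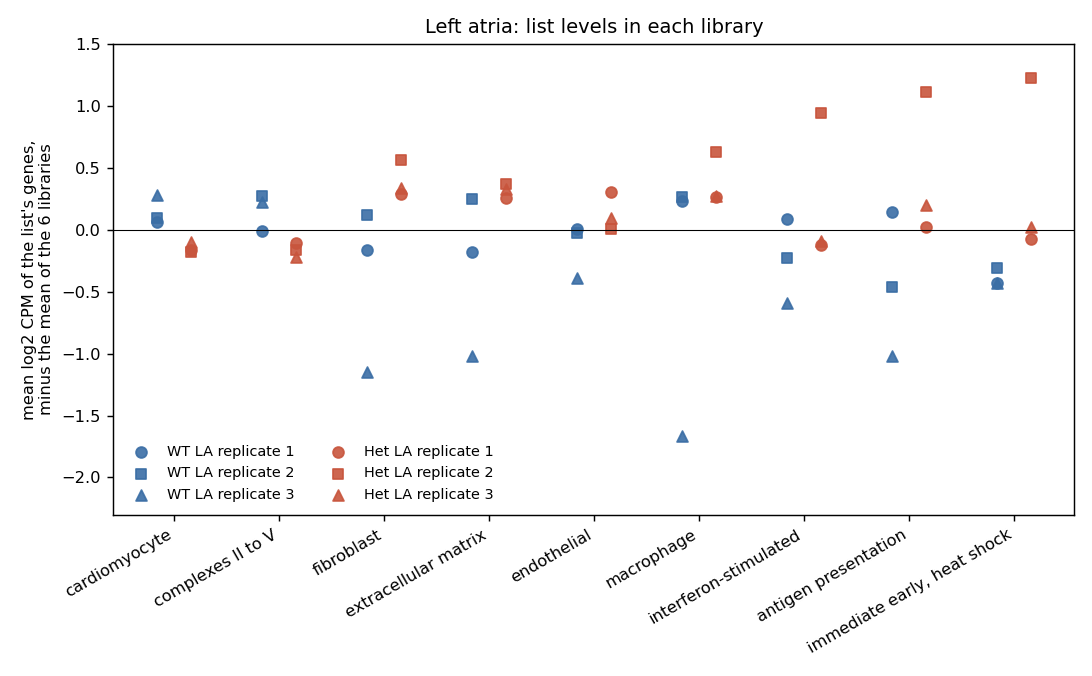
For 9 gene lists, the vertical axis gives each library's mean log2 CPM over the list's genes minus the mean of the 6 left atrial libraries, with blue symbols for WT, red for Het and the symbol shape for the replicate. WT replicate 3 lies lowest in the fibroblast, matrix, endothelial and macrophage lists, and Het replicate 2 lies highest in the interferon (3.90 before centring), antigen presentation (5.01) and immediate early (5.17) lists, while the WT libraries lie above the Het libraries in the cardiomyocyte and complexes II to V lists, by a gap smaller than the range within WT.

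Nuclear genes for RNA handling and transcription were called in both directions. Of 32 splicing factor genes 7 were called higher and 0 lower, at a median of 0.10. Between 5 and 8 were called higher when any 1 WT or Het library was left out. Hnrnph1 was at 213, 191 and 210 CPM in WT and at 283, 293 and 278 CPM in Het (log2 0.47 ± 0.07 SE, adjusted p = 0.00558), and the SR protein genes Srsf3 and Srsf7 and the related Tra2b rose by log2 0.54, 0.43 and 0.47. Bcl6, a transcriptional repressor, was at 10.9, 11.8 and 7.50 CPM in WT and at 22, 21.9 and 19.7 CPM in Het (log2 1.06 ± 0.15 SE, adjusted p = 0.00556). Banp, a matrix-attachment protein gene on chromosome 8 within 20 Mb of Zfhx3, was at 6.25, 5.11 and 5.47 CPM in WT and at 13.3, 12.1 and 12.6 CPM in Het (log2 1.18 ± 0.19 SE, adjusted p = 0.00945), a clear separation. Bcl6 and Banp were picked out once their values had been seen. Of 27 cardiac transcription factor genes, 2 were called higher, Gata6 (log2 0.29) and Foxp1 (0.29), and 1 lower, Esrrg. Over all genes tested 4.02% were called higher and 5.38% lower, so these few calls do not set the list apart. Tbx5 was not called (log2 0.17, adjusted p = 0.190). Shox2, a sinus node factor, was at 0.502, 0.576 and 0.636 CPM in WT and at 1.54, 1.46 and 1.29 CPM in Het (log2 1.33 ± 0.29 SE, adjusted p = 0.0202), a low level in both groups. In its list of left-right and sinus node genes 2 of 15 were called higher and 2 lower. Among them Cntn2, a cell adhesion gene of the conduction system, was at 1.28, 1.51 and 1.97 CPM in WT and at 0.458, 0.80 and 0.348 CPM in Het (log2 -1.51 ± 0.32 SE, adjusted p = 0.0182). With Het replicate 2 left out, no gene of the cardiac transcription factor list was called.

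Other lists had few calls. Of 28 adrenergic and muscarinic genes 3 were called higher, among them the inhibitory G protein gene Gnai3 (40.8, 40.0 and 29.4 CPM in WT, 58.3, 63.7 and 56.5 in Het, log2 0.69, adjusted p = 0.00723), and Pde4a, a cyclic AMP phosphodiesterase, was lower (log2 -0.40, adjusted p = 0.0264). The receptor genes Adrb1 and Chrm2 were not called (log2 -0.16 and 0.13). The natriuretic peptide gene Nppb, which stretch induces, was at 137, 109 and 163 CPM in WT and at 273, 227 and 207 CPM in Het, without overlap, and missed the threshold (log2 0.79 ± 0.23 SE, adjusted p = 0.0667). The list of ATF4, serine and one-carbon genes had 3 of 24 called lower and 1 higher. The mitochondrial folate enzyme gene Mthfd2 was lower, at 7.62, 12.8 and 6.36 CPM in WT and 4.03, 3.96 and 2.88 in Het (log2 -1.30, adjusted p = 0.0131) as was Aldh1l2, at 80.2, 77.4 and 82.3 against 50.1, 57.8 and 50.8 CPM (log2 -0.60, adjusted p = 0.00556). The stress factor gene Atf5 was lower (log2 -0.39, adjusted p = 0.0486) and Cbs, of the path from homocysteine to cysteine, was higher (log2 1.44, adjusted p = 0.0260). The unfolded protein genes Xbp1 (log2 0.40) and Edem1 (0.48) were higher and Atf6 (-0.32) lower, of 23. Of 39 genes near human atrial fibrillation loci 3 were called higher and 3 lower, the lower ones being Ttn, Pln and Cand2 (log2 -0.35). Of 15 antigen presentation genes edgeR's quasi-likelihood test called 0, though all lay above 0, at a median of 0.63. Their mean log2 CPM was 4.04, 3.44 and 2.88 in WT and 3.92, 5.01 and 4.10 in Het, so the groups overlapped. Of 20 cytokine and adhesion genes Vcam1 was called (log2 0.80). Cell cycle genes were called higher in 3 of 28 cases and lower in 1, and clock genes lower in 1 of 19. Of the chamber lists, 1 of 18 atrial genes was called lower (Mybphl) and 0 of 6 ventricular genes, by edgeR's quasi-likelihood test. With library totals the medians of the connexin, adrenergic, atrial chamber, clock, ATF4, skeletal muscle and atrial fibrillation lists turn from below 0 to 0.16, 0.23, 0.12, 0.08, 0.03, 0.09 and 0.17. Iron handling had 1 of 13 called higher and the stretch and natriuretic list 1 of 16 (Npr1, log2 0.37).

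Markers of further cell types that an atrial sample could hold were mostly not called. For lymphocytes edgeR called 0 of 10, for epicardium 0 of 12, for adipocytes 0 of 3 and for thymus and lymph node 0 of 2, and of the lung epithelial markers 0 of 5 passed the filter on low counts. Of smooth muscle and pericyte markers 1 of 12 was called higher (Abcc9, log2 0.55), and of skeletal muscle markers 1 of 4 lower (Ckm, log2 -0.45). Erythroid markers summed to 106 to 935 CPM in WT and 92.9 to 493 in Het, with 0 of 7 called at a median of -0.83.

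The right atria of the same animals gave a second reading of the same contrast, in which WT has 2 libraries because the columns of WT right atrial replicates 1 and 2 are identical and were counted once. There 51 of 18018 genes were called (0.283%), 16 higher in Het (0.0888%) and 35 lower (0.194%). Of the 1596 genes called in left atria, 1546 had the same sign in right atria (96.9%, beside 72.6% of all genes tested), 44 were called there in the same direction and 0 in the opposite one. The median right atrial difference was 0.28 for genes higher in Het left atria and -0.23 for those lower, where the left atrial medians were 0.56 and -0.40. The genes were chosen on the left atrial test, which enlarges the left medians, so these medians do not compare the atria. These right atria come from the same animals and carry the same sex patterns, so they do not separate genotype from sex either. Scn4b, at 4.79 and 5.52 CPM in the WT right atria and 1.70 to 3.21 in Het, and Atp2b2, at 6.58 and 2.37 against 0.803 to 2, had lower levels there too. Among called genes described above, Mthfd2, Jund, Id3, Adm, Myc, Tgfb1 and Atf5 had right atrial differences of the opposite sign to the left, at log2 0.09, -0.16, -0.07, -0.11, -0.15, -0.02 and 0.01.

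**Figure D5:**
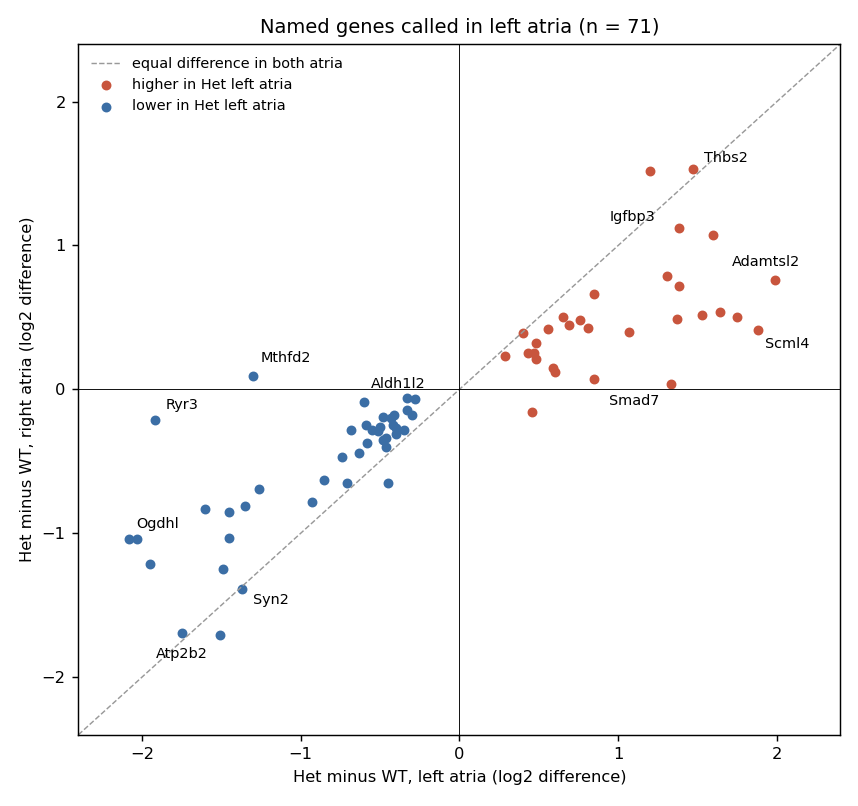
Each point is 1 of the 71 named genes called in left atria, sex-linked lists aside, with the Het minus WT log2 difference in left atria on the horizontal axis and in right atria on the vertical axis; the dashed line marks equal differences. For 69 of the 71 the sign is the same, and the genes were chosen on their left atrial test; points between the line and 0 on the vertical axis include Smad7 (0.85 left, 0.07 right) and Ryr3 (-1.92 left, -0.21 right), while Atp2b2 (-1.75 and -1.69) and Thbs2 (1.47 and 1.53) lie near the line.

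Whether a difference was larger in left than in right atria was tested on its own, across all libraries of both atria. edgeR's quasi-likelihood test called 0 of 18018 genes (0%), with 786 at an unadjusted p under 0.05, and DESeq2 called 1. Left and right libraries of 1 animal had deviations from their group means that correlated at 0.158 to 0.411. Left and right libraries of different animals were not compared in this way, so these values do not test the pairing. With the animal as a block 21 genes were called. The identical WT library may belong to WT animal 1 or 2, and placed with animal 2 it gave 154 calls. The 11 genes called in both placements include Smad7, Id3 and Skil of the TGF-beta and BMP response, and Rasgef1b, Actb, Gata2, Tmem204 and Fxyd6. Smad7, at 56.3 and 57.7 CPM in the WT right atria and 65.7, 61.2 and 53.2 in Het, overlapped there, and its right minus left difference was -0.83 with the block (adjusted p = 0.00676). Id3, at 62.1 and 52.2 CPM in the WT right atria and 64.4, 54.4 and 45.1 in Het, had -0.77 (adjusted p = 0.00831), and Rasgef1b -0.85 (adjusted p = 0.00676). Aldh1l2, a mitochondrial folate enzyme gene, was lower in Het left atria and had 49.1 and 53.2 CPM in the WT right atria against 42.3 to 54.9 in Het, with a right minus left difference of 0.51 (adjusted p = 0.0326). Of the 21 genes, 19 had a Het minus WT difference above 0 in left atria and a lower signed difference in right atria, which for Kif1a (0.06 left, -0.65 right) and 1 gene without a symbol was larger in size and opposite in direction. Of the 21, 13 were called in left atria. The set of genes called thus depends on the block and on where the identical library is placed. Without the block, edgeR called 0 genes when any 1 WT or Het library was left out.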

How the data were processed

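The authors deposited 1 table of gene counts for 18 atrial libraries. It holds whole numbers, read here as raw counts per gene. Named in the submitters' processing notes, without their roles, are STAR (2.7.9a), DESeq2 (1.30.1) and the build mm10. What annotation, counting rule and strand setting were used is not given in the sources used here. Of 56691 gene IDs, 52073 were matched by base ID to GENCODE M21 (GRCm38), 35 of them with the same version and 46676 one version above it. Unmatched IDs held 0.652 to 2.63% of the counts of the left atrial libraries compared. No sample column was left unused.

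The test was edgeR 4.0.16 in R 4.3.3: genes passed filterByExpr (minimum count 10), libraries were scaled by TMM, dispersions were fitted by robust quasi-likelihood, and an adjusted p under 0.05 was a call. The left atrial fit held 9 libraries, with KO only sharing the dispersion. The test of right against left atria held 17, since WT RA replicates 1 and 2 are identical in all 56691 genes. CPM values carry TMM scaling, log2 CPM levels of lists use a prior count of 2, and ± is an SD for levels and a standard error for log2 differences. The p-values weigh each tested difference against the spread between animals within groups. In the left atrial fit that spread was pooled over the WT, Het and KO libraries. In 5 runs on simulated data with 200 changed genes among 16974, the left atrial test recovered 42.7, 63 and 88.5% of genes changed 1.5, 2 and 4-fold, with 11.8 false calls per run. Genes were simulated independently, without the differences in sex, mitochondrial share and single libraries that the real data hold. These rates may therefore not hold for the real calls.

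Genes were named by a rule: Zfhx3, the sex-linked lists, the 10 largest rises and falls among called autosomal genes whose groups did not overlap, whose symbol is not a clone name and whose mean level reached 5 CPM, and the 2 called members with the smallest p of each of the 50 gene lists that has 2 or more called. Other list members stand as examples, as do some genes chosen by hand outside the rule, such as Skil, Adam19, Bcl6 and Banp. Some genes that the rule would name are not reported here. The comparison, the rule and the lists were chosen with earlier results of these data known. The fits added once these files had been read were those without mitochondrial chromosome genes, without X and Y genes, and with the identical library as WT animal 2.

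Other fits used DESeq2 1.42.0, limma-voom (limma 3.58.1), RLE scaling, library totals, no filter on low counts, a replicate block, only WT and Het libraries, and all libraries in 1 fit. Each WT or Het library in a fit was also left out in turn. No KO library was left out by itself.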

Additional observations from a re-analysis of the deposited data

How the results depend on the processing

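The count of left atrial calls (1596) moved by more than 1.5 times with library totals only (4528), with no filter on low counts (2786) and with only the WT and Het left atria in the fit (1037). With 1 WT or Het library left out it ran from 307 to 1742. It was 832 without WT replicate 2, 672 without WT replicate 3, and 788, 307 and 651 without Het replicates 1, 2 and 3. It was 2258 by DESeq2, 1489 by limma-voom, 1581 with RLE scaling, 2392 with all libraries of both atria, and 1571 without the mitochondrial chromosome. The share of calls higher in Het was 42.7%, and 94.8% with library totals, 55.8% with no filter. Same-numbered WT and Het left atrial libraries deviated from their group means with correlations of -0.056, 0.155 and 0.133. Whether replicate numbers pair the animals was not tested against other pairings. The replicate block gave 1586 calls, 1327 of them shared with the 1596. No call changed sign except 20 with library totals. With library totals only 235 genes were called lower in Het, so most of the main calls that were lower were not called lower there. Of the main calls, 300 were still called without Het replicate 2. The count for right minus left atria was 0, and it was 1 by DESeq2, 163 with no filter, 21 with the replicate block by animal and 154 with the identical library as WT animal 2. With 1 WT or Het library left out it stayed at 0. Of the values for 86 named genes under these alternatives, 1137 kept their direction and side of the threshold, 203 were no longer past it, 18 were newly past it and 0 reversed; list counts moved by over 1.5 times in 193 of 300 cases with 1 library left out. The lowest depth was that of WT replicate 3, where low-count genes carry the most counting error.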
